A study of Homo sapiens with 8 samples.

Results

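HERVK internal repeat families are the protein-coding inner parts (gag, pro, pol and env) of a group of endogenous retroviruses, viral genomes that entered the germ line of primate ancestors and were copied many times. The K stands for lysine, after the tRNA that primes their reverse transcription. They were taken here as every repeat-family row (a row without a gene identifier) of the expression table whose name begins with HERVK, which gave 10 of 1264 families. Each row sums reads over all copies of 1 family in the human genome (hg38), including copies that lie inside the transcripts of other genes. A provirus consists of such an internal part between 2 long terminal repeats (LTRs), which hold its promoter and are counted as families of their own. DNA methylation keeps most LTRs silent in adult cells. Drugs that block DNA methyltransferases are known to raise the RNA of some endogenous retroviruses, which can form double-stranded RNA and be sensed as viral. By the lineages of the group, which are called HML for their likeness to mouse mammary tumor virus, the rows are HERVK-int (HML-2), HERVK3-int (HML-6), HERVK9-int (HML-3), HERVK11-int (HML-8), HERVK11D-int (HML-7), HERVK13-int (HML-4), HERVK14-int (HML-1), HERVK14C-int (HML-9), HERVK22-int (HML-5) and HERVKC4-int (HML-10).

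The cells were THP-1, a human acute monocytic leukemia line, in a parental form and in a decitabine-resistant (DAC-resistant) form. The DAC-resistant line was selected from the parental cells by repeated pulses of DAC over months and was then kept free of drug before the experiment, and it is 1 selected line. Decitabine (DAC) is a cytidine analogue that traps DNA methyltransferases after it is built into DNA. Both lines carry the same genotype label, WT, and each was given DMSO, the solvent, or 1 µM DAC for 6 days, with 2 libraries labelled as biological replicates in each of 4 groups.

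The family values are FPKM, reads per kilobase of family length scaled to the repeat reads of the library, so each is a share of those reads. Whole reads could be recovered from the steps of the values for 1166 of the 1172 families that were above 0. The libraries had been scaled by 3112608 to 3725841 repeat reads and by 27480502 to 31916835 gene reads. Per 1000 gene reads there were 114 to 117 repeat reads in the 4 parental libraries and 103 to 104 in the 4 DAC-resistant ones. Of 10 monocytic marker genes 7 were at 1 FPKM or more in every library, among them SPI1 (67.4 to 129) and CD4 (113 to 163). The summed monocytic markers moved with the groups, from 333 to 346 FPKM in parental cells under DMSO to 408 to 417 with DAC, and they were 229 to 239 in DAC-resistant cells. Of 6 B and plasma cell markers 1 was at 1 FPKM or more in every library, and their sum moved too, from 7.22 to 7.77 FPKM under DMSO to 11.1 to 12.7 with DAC in parental cells, with 8.03 to 8.9 in DAC-resistant cells. No T cell, erythroid or epithelial marker was at 1 FPKM in every library. The epithelial sum was 1.45 to 1.93 FPKM in DAC-treated parental cells and at most 0.195 elsewhere, the T cell sum was 0.479 to 0.727 there and at most 0.304 elsewhere, and the erythroid sum ranged from 0 to 3.08, its highest in 1 DAC-resistant library under DMSO. The part of these markers in the HERVK results was not tested. In bulk RNA, fewer cells with a transcript and less of it per cell cannot be told apart.

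The HERVK families together gave 3146 to 3176 RPM (scaled to repeat reads as FPKM is, but not by length) in parental cells and 2740 to 2835 in DAC-resistant cells, and these ranges did not overlap. Scaled to gene reads, the sums were 361 to 373 and 283 to 294 RPM, again without overlap. DAC moved the sum by little in the parental line, where it was 3165 and 3176 with DMSO and 3146 and 3151 with DAC. Scaled to gene reads, it was 373 and 368 with DMSO and 361 and 362 with DAC. In DAC-resistant cells it was 2826 and 2835 with DMSO and 2791 and 2740 with DAC, scaled to repeat reads. Each of these pairs with DAC was lower than its DMSO pair, without overlap. Below these sums, single families went in opposite directions. Limma was fitted to log2 values of the 1165 families that passed the filter on low values, all 10 HERVK families among them, and a family is called changed at an adjusted p (Benjamini-Hochberg, over all 1165) under 0.05. With 2 libraries a group an exact permutation test cannot give a p below 0.333, so the p-values rest on a spread shared across families and groups, and measure the spread between these libraries.

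In parental cells given DAC, 1 HERVK family rose (HERVK3-int) and 3 fell (HERVK9-int, HERVK11-int and HERVK22-int), while 12.6% of all families tested rose and 11.0% fell. In DAC-resistant cells DAC raised none and lowered none of the 10 by limma, as it did for all 1165 families (0% in each direction, with 117 at an unadjusted p under 0.05). At an unadjusted p under 0.05, 3 of the 10 passed there, and voom on recovered reads called none of the 10 but 24 of the 1159 families it tested. DAC-resistant cells with DMSO differed from parental cells with DMSO by 2 families that were higher (HERVK3-int and HERVKC4-int) and 3 that were lower (HERVK9-int, HERVK11-int and HERVK22-int), against 11.9% higher and 17.6% lower among all families. With DAC in both lines, 2 were higher in DAC-resistant cells (HERVKC4-int and HERVK14-int) and 5 lower (HERVK3-int, HERVK9-int, HERVK11-int, HERVK11D-int and HERVK14C-int), of which HERVK3-int turned to 0.03 when every library was scaled to the same sum over families. Of all families 17.1% were higher and 18.9% lower. By a stricter rule of at least a 2-fold change at an unadjusted p of at most 0.01, only HERVKC4-int passed, in both comparisons of the lines, where 4.64% (DMSO) and 7.21% (DAC) of all families did. None of the 10 passed that rule with DAC, when 4.21% of all families did in parental and 0.515% in DAC-resistant cells. The median log2 change of the 10 with DAC in parental cells was 0.13, beside -0.02 over all families and 0.06 over 130 other internal families, of which 27 rose and 13 fell. Between the lines with DMSO it was -0.16, beside -0.07 over all families and -0.20 over the other internal families, of which 13 were higher and 30 lower. The split of the calls depended on the scaling. Equal sums here are equal totals of the per-length FPKM values and not of reads. A read of a short family therefore weighs more in them than a read of a long one. With every library scaled to equal sums over families, 69 of the 1165 families rose and 617 fell with DAC in parental cells, and among the 10 these were 1 and 4. Between the lines with DMSO, 87 were higher and 324 lower at equal sums, and 74 and 408 when scaled by gene reads. Between the lines with DAC the counts were 374 and 132 at equal sums and 110 and 392 by gene reads. The comparisons share libraries, since the parental DMSO pair serves both the DAC comparison and the comparison of the lines.

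**Figure D1:**
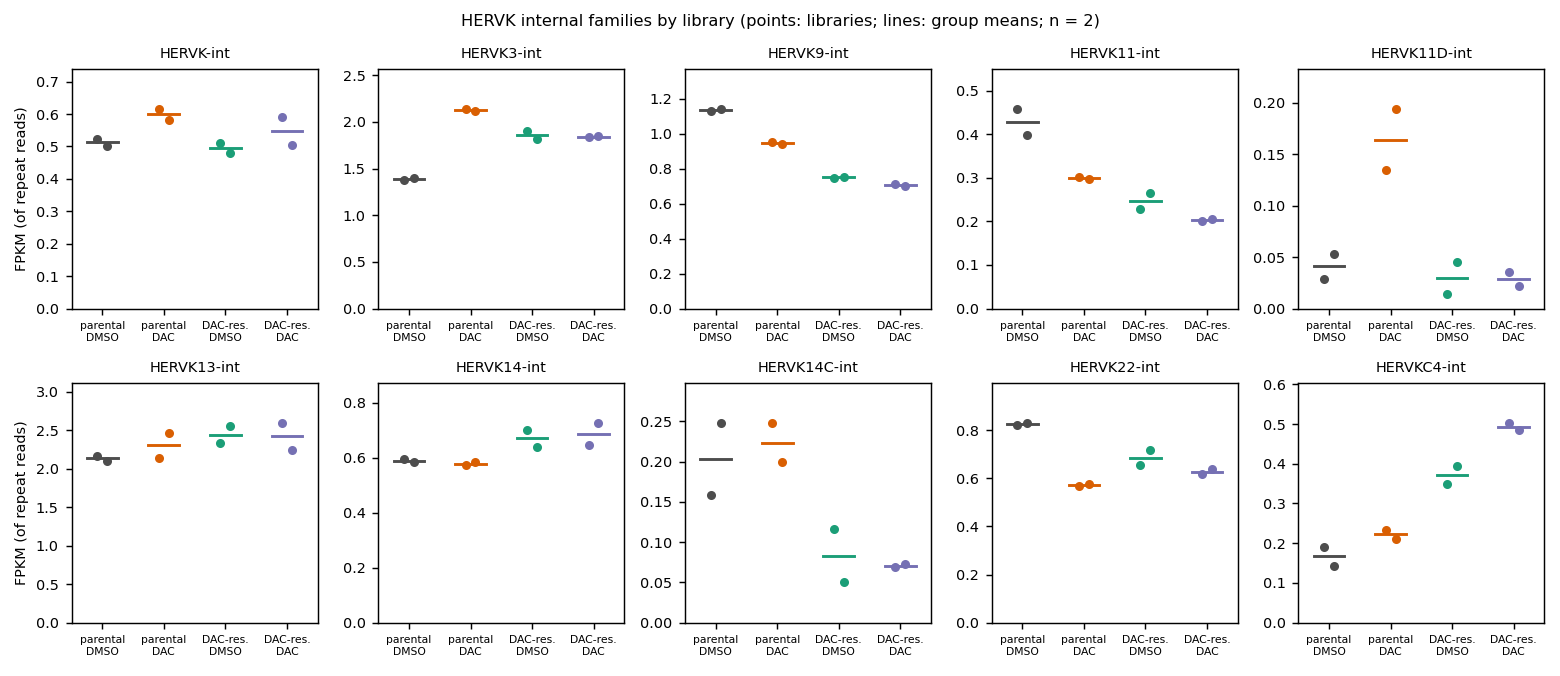
FPKM of repeat reads (vertical axis, from 0, its own scale in each panel) of the 10 HERVK internal families in the 8 libraries, with points for libraries and lines for the means of 2. HERVK3-int is lowest in parental cells under DMSO (1.37 and 1.40) and highest with DAC (2.14 and 2.12), while HERVK9-int, HERVK11-int and HERVK22-int are highest in parental cells under DMSO and HERVKC4-int is highest in DAC-resistant cells.

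HERVK3-int belongs to HML-6, an older lineage with LTR3 as its LTR. Its level was 1.37 and 1.40 FPKM in parental cells under DMSO, from 2144 and 2067 reads, and 2.14 and 2.12 with DAC, from 2815 and 2809 reads. In DAC-resistant cells it was 1.9 and 1.81 with DMSO and 1.84 and 1.85 with DAC. The DAC-treated parental pair was the highest, the DMSO-treated parental pair the lowest, and both DAC-resistant pairs lay between them and overlapped each other. DAC raised it in parental cells by 0.62 on the log2 scale (SE 0.0316, adjusted p = 0.00026), and the difference in DAC-resistant cells was -0.01 (95% interval -0.09 to 0.07, adjusted p = 0.92). The rise was 0.21 at equal sums over families, a scaling that moved the median of all families from -0.02 to -0.42, and was still called. At that scaling the falls of HERVK9-int, HERVK11-int and HERVK22-int, described next, were -0.67, -0.91 and -0.93. The 2 DAC effects differed by -0.63 (adjusted p = 0.0012), and by -0.28 at equal sums (adjusted p = 0.0083). Of all families, 6.44% had a DAC effect that was larger (more positive) and 6.87% one that was smaller in DAC-resistant than in parental cells, and 4.38% differed by the 2-fold rule. At equal sums these differences were positive for 434 families and negative for 57. With DMSO, HERVK3-int was higher in DAC-resistant than in parental cells by 0.42 (adjusted p = 0.0011), and by 0.24 when scaled by gene reads (adjusted p = 0.0035). With DAC it was lower in DAC-resistant cells by 0.21 (log2 change -0.21, adjusted p = 0.0061), but this turned to 0.03 when every library was scaled to the same sum over families.

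HERVK9-int, the inner part of HML-3 proviruses, gave the most reads of the group in every library but DAC-resistant replicate 2 with DAC. There it had 2401 reads and HERVK3-int 2446. HERVK9-int ranged from 2401 to 4566 reads a library. It stood at 1.13 and 1.14 FPKM in parental cells under DMSO and at 0.952 and 0.942 with DAC. In DAC-resistant cells it was 0.748 and 0.754 with DMSO and 0.712 and 0.702 with DAC. The 4 groups did not overlap, and the pairs were so close that the larger replicate exceeded the smaller by at most 1.01-fold. The fall with DAC in parental cells was small, -0.26 (SE 0.0279, adjusted p = 0.0034), and the difference between the lines with DMSO was larger, -0.60 (adjusted p = 0.0003). With DAC the DAC-resistant cells were lower, at -0.42 (adjusted p = 0.00042), and at -0.19 with equal sums (adjusted p = 0.0039). In DAC-resistant cells the DAC difference was -0.09 (unadjusted p = 0.024, adjusted p = 0.44). The 2 DAC effects differed by 0.18 (adjusted p = 0.046) and by 0.52 at equal sums, a call that was lost without any 1 of the 8 libraries. Of 12 other fits with adjusted p-values, 7 kept this call.

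HERVK22-int, of the HML-5 lineage with LTR22 as its LTR, followed DAC in parental cells in the direction opposite to HERVK3-int. Its levels were 0.822 and 0.830 FPKM with DMSO and 0.569 and 0.578 with DAC in parental cells, from 1857, 1774, 1086 and 1107 reads. In DAC-resistant cells they were 0.654 and 0.719 with DMSO and 0.620 and 0.638 with DAC. Each DAC-resistant library lay between the 2 parental groups, and the 4 groups did not overlap. The fall with DAC in parental cells was -0.53 (SE 0.0538, adjusted p = 0.0030), the difference in DAC-resistant cells was -0.13 (95% interval -0.26 to 0.01, adjusted p = 0.52), and the 2 effects differed by 0.40 (adjusted p = 0.031), or 0.75 at equal sums. That call was lost without any 1 of the parental libraries or without either DAC-resistant library given DAC. With DMSO, DAC-resistant cells were lower, at -0.27 (adjusted p = 0.020) and at -0.45 when scaled by gene reads, a call lost with only the 4 libraries compared and without either parental DMSO library or DAC-resistant DMSO replicate 1. With DAC the difference of 0.13 did not pass (adjusted p = 0.11), though it did at equal sums (0.37, adjusted p = 0.0037), and scaling by gene reads turned it to -0.02. Across the 8 libraries the log2 levels of HERVK22-int and HERVK3-int had a Pearson correlation of -0.96, which describes libraries that share their groups and one repeat total.

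HERVK11-int, the HML-8 family whose LTRs are MER11A, MER11B and MER11C, was at 0.457 and 0.399 FPKM in parental cells under DMSO and at 0.302 and 0.297 with DAC. It stood at 0.228 and 0.266 in DAC-resistant cells under DMSO and 0.201 and 0.206 with DAC, from 266 to 339 reads. No 2 of the 4 groups overlapped. It fell with DAC in parental cells by 0.51 (log2 change -0.51, adjusted p = 0.027), although that call held without only 2 of the 8 libraries in turn, the DAC-resistant ones given DMSO. It was also lost with the replicate number as a block (adjusted p = 0.057) and with only the 4 libraries compared (adjusted p = 0.064). DAC-resistant cells with DMSO were lower, at -0.79 (SE 0.109, adjusted p = 0.0075), a call lost with only the 4 libraries compared (adjusted p = 0.057). With DAC they were lower, at -0.56 (adjusted p = 0.014), a call lost with equal sums, with quantile normalization and without any 1 of the DAC-treated libraries. The DAC difference in DAC-resistant cells was -0.28 (unadjusted p = 0.048, adjusted p = 0.49), and it was not shown to differ from that in parental cells (0.23, 95% interval -0.16 to 0.62, adjusted p = 0.37). The correlation of HERVK11-int with HERVK9-int over the 8 libraries was 0.96.

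HERVKC4-int is the inner part of HML-10, best known for the provirus in an intron of the genes for complement component 4. In the reference genome it lies in intron 9 of 40 of C4A, at chr6:31984409-31991191, and in the same intron of C4B, at chr6:32017147-32023929, against the direction of both genes. These introns are 6783 bases long and the next longest intron is 1491. In each, a self-alignment found a 556 and a 553 base stretch that were 89.2% identical and had 5258 bases between them, the layout of 2 LTRs around an internal part. The C4A and C4B introns had 0 base differences from each other, and the sources used here do not say how reads that fit several places were counted. The sequences below show what marks this insertion as a provirus of the group, the start of its LTR (minus strand, hg38, chr6:31990993-31991052) and the bases around the end of that LTR (minus strand, chr6:31990442-31990541), where capitals mark the 18 bases that begin with TGGCGCC, the primer binding site that pairs with lysine tRNA.
C4A long terminal repeat start: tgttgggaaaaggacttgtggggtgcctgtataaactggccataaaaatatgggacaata
C4A intron 9: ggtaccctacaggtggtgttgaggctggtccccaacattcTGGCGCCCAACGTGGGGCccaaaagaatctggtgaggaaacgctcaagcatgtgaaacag
The 7 letters TGGCGCC were found 1 time on the minus strand of the intron and 0 times on the plus strand. Searched on both strands, they occur in 1.59% of RefSeq promoter windows of 100 bases, so the match is a description of the window and no measure of use.

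HERVKC4-int had few reads and, of the HERVK internal families called between the lines under DMSO, the largest difference. Its reads were 61 and 43 in parental cells under DMSO, 63 and 57 with DAC, 97 and 105 in DAC-resistant cells under DMSO, and 141 and 131 with DAC. As FPKM these were 0.191 and 0.142, 0.234 and 0.211, 0.348 and 0.394, and 0.502 and 0.484. The groups stood in that order, from low to high, without overlap. DAC-resistant cells were higher by 1.16 with DMSO (SE 0.159, 2.24-fold, adjusted p = 0.0075) and by 1.15 with DAC (adjusted p = 0.0046), and the first call was lost when only the 4 libraries compared were fitted. The differences with DAC were 0.42 in parental cells (adjusted p = 0.12) and 0.41 in DAC-resistant cells (adjusted p = 0.49), with an interval of -0.58 to 0.56 for the difference between them. The HERVKC4-int row covers 85637 bases over all its copies, while each C4 intron has 5258 bases between its LTRs. Its reads were therefore not placed at C4 or at any other copy. The C4 genes gave few reads of their own, 8 to 33 a library for C4A and 4 to 18 for C4B. Both were under the filter for genes. C4A and C4B are near-identical copies, so the split of reads between them is uncertain, and they were chosen after their values were seen.

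HERVK14C-int (HML-9) and HERVK11D-int (HML-7) were also families with few reads. HERVK14C-int had 75 and 111 reads in parental cells under DMSO, 99 and 80 with DAC, 48 and 20 in DAC-resistant cells under DMSO, and 29 and 29 with DAC. Every DAC-resistant library was below every parental one in FPKM (0.0506 to 0.116 against 0.158 to 0.248). With DAC the DAC-resistant cells were lower, at -1.63 (SE 0.438, adjusted p = 0.037), a call that held without 2 of the 8 libraries in turn and in 9 of 13 other fits. It was lost without a filter, with equal sums, with quantile normalization and with the replicate number as a block (adjusted p = 0.051, 0.051, 0.066 and 0.061). With DMSO the difference of -1.36 missed the threshold (adjusted p = 0.071), and voom on the recovered reads called it (adjusted p = 0.0052), as it did 474 of 1159 families. Its replicates differed by more than counting error in both DMSO groups (exact binomial test, adjusted p = 0.035 and 0.029 over 40 replicate pairs).

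HERVK11D-int had 9 and 16 reads in parental cells under DMSO and 36 and 52 with DAC, and 4 and 12 in DAC-resistant cells under DMSO and 10 and 6 with DAC. In FPKM the DAC-treated parental libraries (0.135 and 0.194) were above all 6 others, the highest of which was 0.0534. The log2 difference with DAC in parental cells, 2.02, was the largest of the 10 families, but its error was also the largest (SE 0.652, adjusted p = 0.083). On the recovered reads, voom gave 2.02 with an adjusted p of 0.0040, and it called 408 of 1159 families in this comparison. The lines differed with DAC (-2.47, adjusted p = 0.036), and that call was lost without any 1 of the parental libraries or either DAC-resistant library given DAC. The difference in DAC-resistant cells was 0.13 with an interval of -1.51 to 1.78, and the 2 DAC effects were not shown to differ (-1.89, adjusted p = 0.25).

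HERVK-int, the HML-2 lineage, holds the youngest human proviruses and those that still have open reading frames for viral proteins. Its levels were 0.524 and 0.501 FPKM in parental cells under DMSO, 0.615 and 0.582 with DAC, 0.509 and 0.481 in DAC-resistant cells under DMSO, and 0.590 and 0.505 with DAC, from 865 to 1128 reads. The DAC-treated parental pair was above both DMSO pairs and overlapped the DAC-treated DAC-resistant pair. That last pair differed by more than counting error (1119 and 923 reads, exact binomial test, adjusted p = 0.017). With DAC in parental cells the log2 difference was 0.22 (SE 0.087, unadjusted p = 0.047, adjusted p = 0.13), and voom called it (0.22, adjusted p = 0.024), but it was at -0.18 with equal sums (adjusted p = 0.13). The other differences were 0.14 with DAC in DAC-resistant cells (adjusted p = 0.60), -0.05 between the lines with DMSO (95% interval -0.27 to 0.17, adjusted p = 0.70) and -0.13 with DAC (adjusted p = 0.29).

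HERVK13-int (HML-4) had the highest level of the group per length, 2.1 to 2.59 FPKM, and HERVK14-int (HML-1) lay between 0.572 and 0.725. HERVK13-int was at 2.17 and 2.1 FPKM in parental cells under DMSO, 2.14 and 2.47 with DAC, 2.33 and 2.56 in DAC-resistant cells under DMSO, and 2.59 and 2.24 with DAC. Its pairs overlapped in part, and the differences ran from -0.02 to 0.19 over the 4 comparisons of groups, and none passed the test. HERVK14-int was at 0.593 and 0.583 FPKM in parental cells under DMSO, 0.572 and 0.583 with DAC, 0.700 and 0.640 in DAC-resistant cells under DMSO, and 0.647 and 0.725 with DAC. All DAC-resistant libraries were above all parental ones, by 0.19 with DMSO (adjusted p = 0.11) and 0.25 with DAC (adjusted p = 0.0496). The DAC difference in parental cells, -0.03 (adjusted p = 0.82), was -0.43 at equal sums (adjusted p = 0.0054). The value of 0.25 was just under the threshold and stayed under it in 6 of 13 other fits and without 1 of the 8 libraries in turn.

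**Figure D2:**
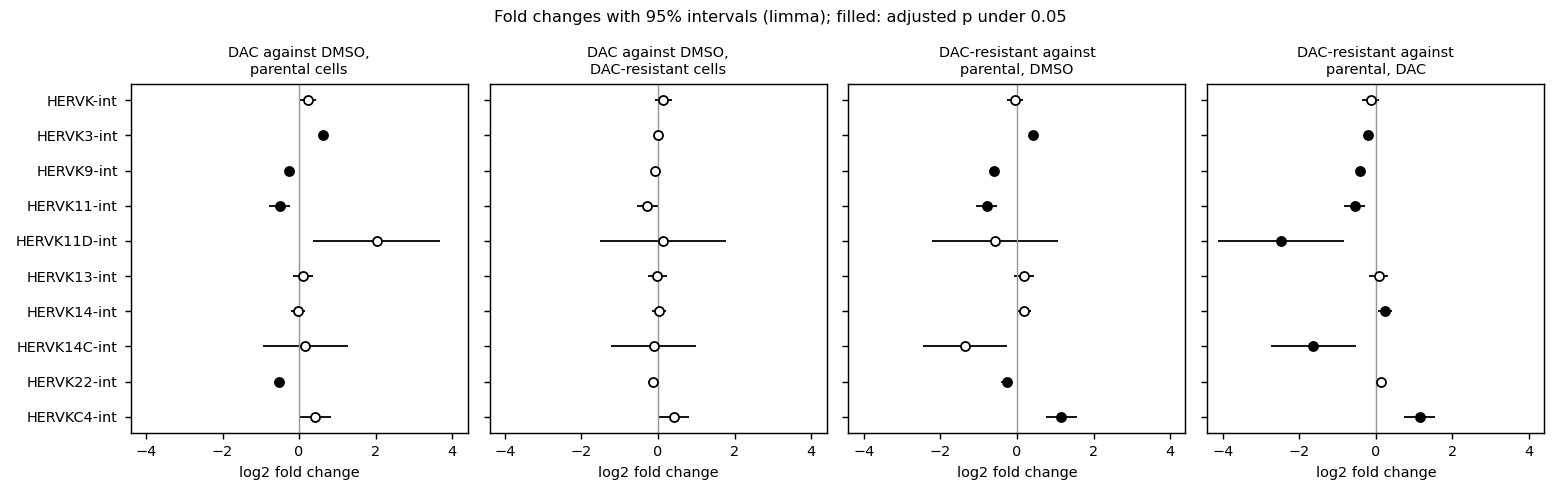
Log2 fold changes (horizontal axis) of the 10 families with 95% intervals from limma in 4 comparisons, filled where the adjusted p is under 0.05. With DAC in parental cells HERVK3-int is at 0.62 and HERVK22-int at -0.53, all 10 points are open in DAC-resistant cells, and HERVK11D-int and HERVK14C-int have the widest intervals. The HERVK3-int value of -0.21 between the lines with DAC turns to 0.03 with equal sums over families.

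The LTRs that flank these internal parts were counted as families too, and 32 of 33 listed ones were in the table. When parental cells were given DAC, 1 rose and 2 fell of the 32, beside 12.6% and 11.0% of all families, and at equal sums 0 rose and 15 fell, beside 5.92% and 53.0% of all families. LTR3B_, of the HERVK3 group, rose by 0.60 (adjusted p = 0.043, and 0.20 with adjusted p = 0.31 at equal sums over families), from 0.373 and 0.307 to 0.556 and 0.474 FPKM. LTR5A, an older LTR of HML-2, fell by 0.37 (log2 change -0.37, adjusted p = 0.020), and LTR13, of the HERVK13 group, fell by 0.40 (log2 change -0.40, adjusted p = 0.0068). None of the 9 LTR22 families was called, nor any LTR of HERVK9-int or HERVK11-int. At equal sums 2 of the LTR22 families were called lower (LTR22C0 at -0.53 and LTR22E at -0.32), as were MER9a1, MER9a2 and MER9a3 (-0.49, -0.33 and -0.48) and MER11A, MER11B and MER11C (-0.40, -0.55 and -0.45). LTR5_Hs, the LTR of the youngest HML-2 proviruses, was at 0.583 and 0.613 FPKM under DMSO and 0.659 and 0.693 under DAC, a difference of 0.18 that did not pass (adjusted p = 0.13) and that turned to -0.23, called lower, at equal sums (adjusted p = 0.035). With DAC in DAC-resistant cells 0 of the 32 were called by limma, with 3 at an unadjusted p under 0.05.

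Between the lines with DMSO, 6 of the 32 were higher and 8 lower in DAC-resistant cells, beside 11.9% and 17.6% of all families, and scaled by gene reads 4 were higher and 11 lower, beside 6.35% and 35.0%. With quantile normalization 4 were higher and 4 lower, beside 10.6% of all families in each direction. LTR3 was higher by 0.78 (adjusted p = 0.0079), at 2.06 and 2.42 FPKM in parental and 4.03 and 3.63 in DAC-resistant cells, and its internal part was also higher. Of the LTRs of HERVK9-int, whose internal part was lower, MER9a1 was higher by 0.57 (adjusted p = 0.0022) and was called at all 4 other scalings. MER9a2 was higher by 0.33 (adjusted p = 0.047), a call lost at all 4 of them. MER9a3 was lower, at -0.30 (adjusted p = 0.047), a call lost with quantile normalization (-0.21, adjusted p = 0.12). Of the LTRs of HERVK11-int, whose internal part was lower, MER11A was lower, at -0.35 (adjusted p = 0.0099), MER11C was lower, at -0.16 (adjusted p = 0.047, lost with quantile normalization), and MER11B was at 0.02 (adjusted p = 0.85). LTR5A and LTR5B were lower, at -0.31 and -0.44 (adjusted p = 0.028 and 0.0062), while LTR5_Hs was at 0.06 and HERVK-int, their internal part, at -0.05, neither of them called. The LTR22 families split into 3 higher and 3 lower, from LTR22B2 at 1.05 (adjusted p = 0.0070) to LTR22A at -1.25 (adjusted p = 0.043), a call lost with quantile normalization (-1.1, adjusted p = 0.079). LTR22C2 had at most 11 reads a library and was not called. LTR14, listed with HERVKC4-int, was at -0.42 (adjusted p = 0.49). Most LTR copies in the genome stand alone without an internal part, so a family of LTRs and its internal family do not count the same places.

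**Figure D3:**
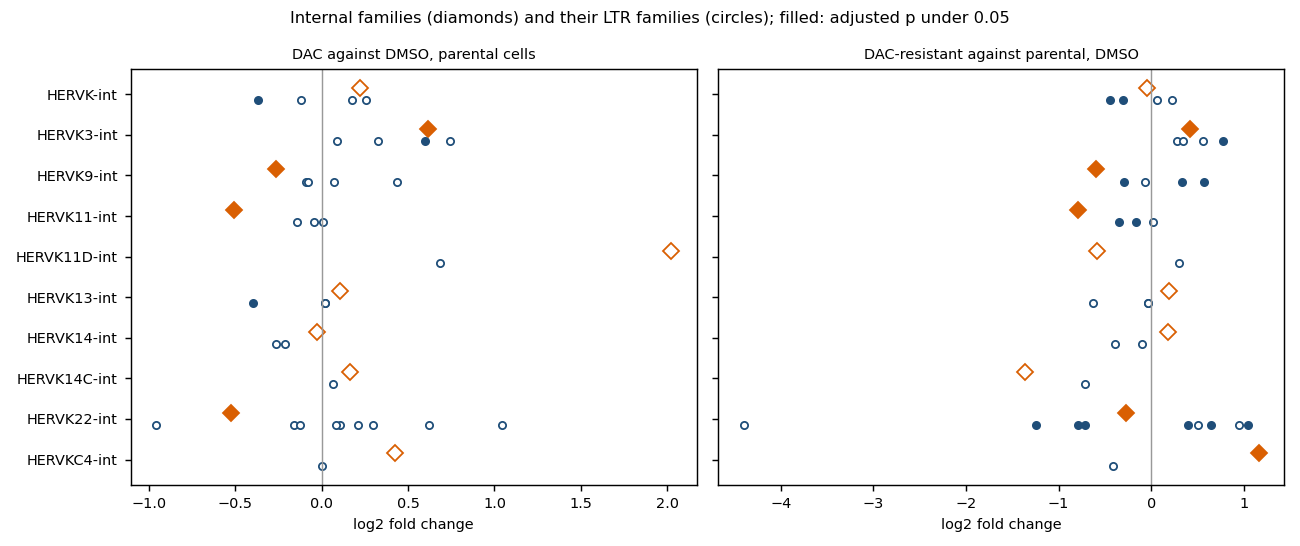
Log2 fold changes (horizontal axis, a scale of its own in each panel) of each internal family (diamonds) and of its LTR families (circles), filled where the adjusted p is under 0.05, with DAC in parental cells (left) and between the lines with DMSO (right). HERVK3-int and its LTRs are above 0 in both panels (with equal sums, LTR3 and LTR3A turn to -0.08 and -0.32 with DAC). HERVK22-int is below 0 in both panels, whereas the 9 LTR22 families lie on both sides of 0.

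SVA elements are composite, still mobile retrotransposons whose end derives from the env gene and LTR of an HML-2 provirus, so they share sequence with HERVK-int and LTR5. DAC in parental cells raised 5 of 6 SVA families and lowered none, while with equal sums over families 4 rose and SVA_B fell. Of all families 12.6% rose and 11.0% fell, and at equal sums 5.92% rose and 53.0% fell. SVA_F went from 0.568 and 0.661 FPKM to 1.70 and 1.78, a rise of 1.5 (SE 0.0758, adjusted p = 0.00025). SVA_D, the family with the most reads (5310 to 9773 a library), went from 0.757 and 0.770 to 1.59 and 1.57, a rise of 1.05 (adjusted p = 3.1e-05). SVA_E rose by 1.35 (adjusted p = 0.0049) and SVA_C by 0.68 (adjusted p = 0.0016). SVA_A rose by 0.32 (adjusted p = 0.039) but was at -0.09 with equal sums over families, and SVA_B, at 0.10, did not pass (adjusted p = 0.23). In DAC-resistant cells no SVA family was called with DAC, with 1 of the 6 at an unadjusted p under 0.05. With DMSO, DAC-resistant cells were higher by 0.37 for SVA_D (adjusted p = 0.0013) and by 0.46 for SVA_F (adjusted p = 0.012), and the other 4 were not called, beside 11.9% higher and 17.6% lower among all families. Scaled by gene reads, SVA_A and SVA_B were called lower there (-0.30 and -0.19). With DAC in both lines all 6 were lower in DAC-resistant cells, among them SVA_D (-0.76) and SVA_F (-1.21). Of all families 17.1% were higher and 18.9% lower in that comparison. At equal sums 4 of the 6 were lower and 0 higher, beside 11.3% lower and 32.1% higher among all families. The DAC effect was smaller in DAC-resistant than in parental cells for 4 of the 6 (and for 6.87% of all families), among them SVA_D (-1.13, adjusted p = 0.00015) and SVA_F (-1.67, adjusted p = 0.00093). The median log2 change of the 6 SVA families with DAC in parental cells was 0.86, beside 0.22 for HERVK-int.

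**Figure D4:**
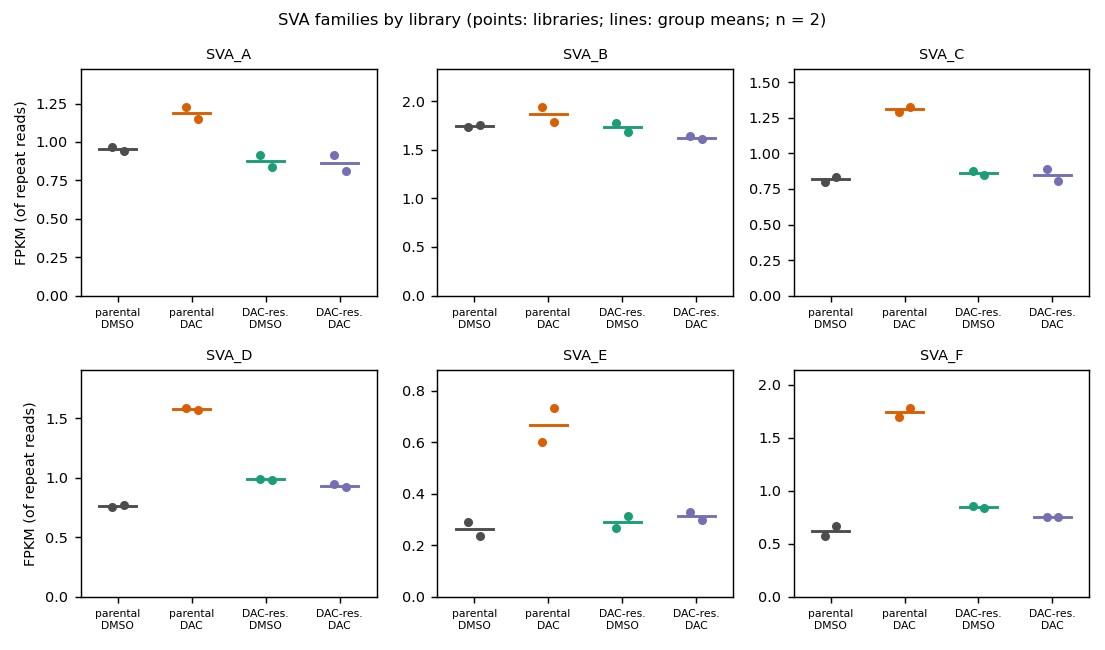
FPKM of repeat reads (vertical axis, from 0, its own scale in each panel) of the 6 SVA families in the 8 libraries, with points for libraries and lines for the means of 2. The DAC-treated parental libraries stand above all others for SVA_C, SVA_D, SVA_E and SVA_F, and SVA_B stays between 1.61 and 1.94 in all 8.

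The gene rows of the same table hold 4 single loci named for the ERVK group, and 2 of them passed the filter of at least 1 FPKM in 2 libraries. ERVK3-1 is a protein-coding gene of the HML-6 lineage at chr19:58305374-58316812 on the plus strand (hg38). It had 1.81 and 1.67 FPKM in parental cells under DMSO, 1.9 and 2.30 with DAC, 2.84 and 2.89 in DAC-resistant cells under DMSO, and 2.40 and 2.67 with DAC, from 255 to 451 reads. It was higher in DAC-resistant than in parental cells under DMSO by 0.50 (adjusted p = 0.0030 over 14899 genes), the same direction as HERVK3-int. Between the lines with DAC, ERVK3-1 was at 0.19 (adjusted p = 0.095), whereas HERVK3-int was at -0.21 (0.03 at equal sums). ERVK3-1 was called higher there at equal sums (0.28, adjusted p = 0.028) and with quantile normalization (0.32, adjusted p = 0.014). With DAC in parental cells the ERVK3-1 difference was 0.18 (adjusted p = 0.13), and the libraries did not overlap. Upstream of it on the same strand, ZNF8, which encodes a zinc finger protein, was higher between the lines by 1.02 (adjusted p = 3.7e-05), from 2.16 and 2.24 to 5.41 and 5.55 FPKM. ZNF8 was chosen after its values were seen. A readthrough row that overlaps both genes on the same strand, ZNF8-ERVK3-1, had 4 to 13 reads a library and was under the filter. The sources used here do not say how reads that fit several genes were counted. These rows may therefore leave out shared reads, and the amount of readthrough was not tested.

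ERVK13-1 is a long noncoding RNA gene named for the HERVK13 group, at chr16:2660348-2682398 on the minus strand. It stayed between 1.89 and 2.19 FPKM in all 8 libraries, with differences from -0.06 to 0.04 that did not pass, as HERVK13-int did not. ERVK9-11, another long noncoding RNA gene, had 6 and 17 reads in parental cells under DMSO, 6 and 15 with DAC, 2 and 5 in DAC-resistant cells under DMSO, and 0 and 1 with DAC, and it was under the filter for genes and not tested. ERVK-28 had 1 read, in 1 library. CpG sites carry the DNA methylation that DAC lowers, so the promoter windows of the first 2 loci are shown (250 bases before to 50 after the start of the RefSeq gene, GRCh38.p14), ERVK3-1 at chr19:58305127-58305426 on the plus strand and ERVK13-1 at chr16:2673390-2673689 on the minus strand. RefSeq starts ERVK13-1 inside the span given above, which is from the GENCODE annotation, so its window lies within that span and not before it. Capitals mark each CG.
ERVK3-1 promoter: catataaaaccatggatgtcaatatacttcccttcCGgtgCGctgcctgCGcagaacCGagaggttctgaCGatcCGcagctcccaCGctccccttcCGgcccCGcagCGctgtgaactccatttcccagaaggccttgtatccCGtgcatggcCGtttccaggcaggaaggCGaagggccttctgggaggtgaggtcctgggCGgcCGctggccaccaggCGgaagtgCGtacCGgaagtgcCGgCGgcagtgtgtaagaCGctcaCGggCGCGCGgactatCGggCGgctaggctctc
ERVK13-1 promoter: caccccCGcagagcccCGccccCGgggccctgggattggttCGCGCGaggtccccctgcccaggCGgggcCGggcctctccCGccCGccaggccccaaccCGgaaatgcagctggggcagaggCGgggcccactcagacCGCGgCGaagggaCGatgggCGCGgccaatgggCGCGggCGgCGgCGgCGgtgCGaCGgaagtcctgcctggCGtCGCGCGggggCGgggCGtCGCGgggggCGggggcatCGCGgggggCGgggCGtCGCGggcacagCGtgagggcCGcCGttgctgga
Both windows are rich in CG. The ERVK3-1 window holds 27, a number that 28.2% of 35116 windows reach, and the ERVK13-1 window holds 44, a number that 4.19% of windows reach, while the median window holds 14. The windows were set by the gene starts, and whether they hold LTR sequence was not tested. Methylation at their CG sites was not measured here.

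**Figure D5:**
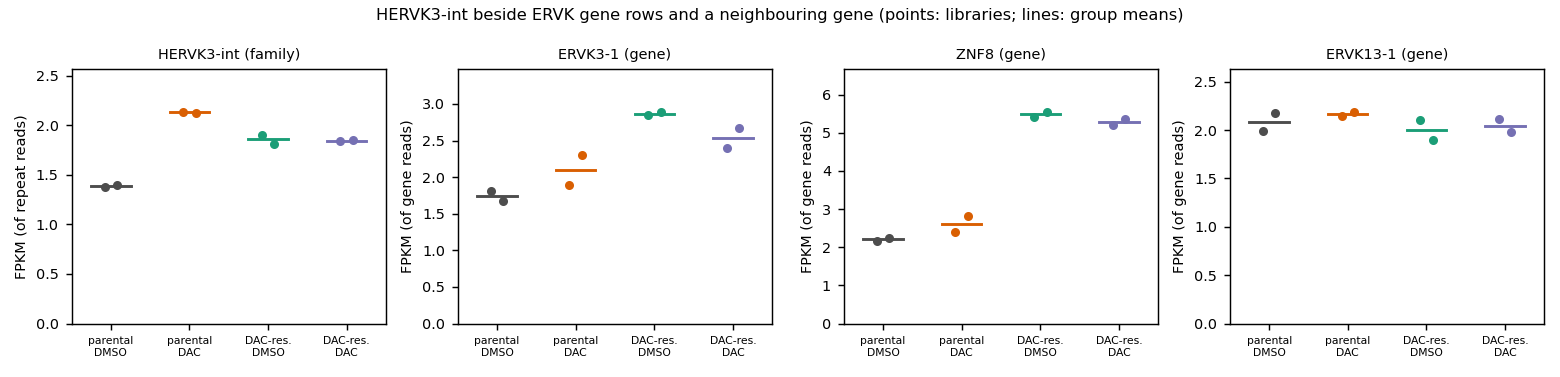
FPKM (vertical axis, from 0, its own scale in each panel) of HERVK3-int, per repeat reads, and of the gene rows ERVK3-1, ZNF8 and ERVK13-1, per gene reads, in the 8 libraries, with points for libraries and lines for the means of 2. HERVK3-int is highest with DAC in parental cells, ERVK3-1 and ZNF8 are highest in DAC-resistant cells, and ERVK13-1 stays between 1.89 and 2.19.

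Families outside the group whose log2 levels over the 8 libraries were most like each HERVK family were found by Pearson correlation, as a description in which all points share groups and repeat totals. HERVK3-int was most like SST1, a satellite repeat (0.99), HERVK9-int like SATR1, another satellite (0.99), and HERVK11-int like Charlie1a, a DNA transposon (0.99). HERVK22-int was most like MER2, also a DNA transposon (0.98), and HERVKC4-int like LTR22B2 (0.98), which was higher in DAC-resistant cells as it was. The 3 families most like HERVK-int were LTR86C, AluYi6_4d and L1P (0.92, 0.92 and 0.90), an LTR, an Alu and a LINE-1 family. HERVK11D-int was most like L1M3e (0.95) and HERVK14C-int like L1M3f (0.96), both old LINE-1 families. HERVK14-int was most like X9_LINE (0.92) and HERVK13-int like MLT-int (0.91), an internal part of another retrovirus-like group.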

How the data were processed

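RNA-seq libraries of both THP-1 lines were made with an mRNA kit. Per the labels and the study's methods, reads were trimmed with cutadapt 1.9.1, aligned to hg38 with HISAT2 2.1.0, sorted with SAMtools 1.6 and counted with HTSeq 0.13.5 on Ensembl genes and on RepeatMasker families. Strand and multi-mapped reads are not given in the sources used here. The authors deposited FPKM values multiplied by 1000, with family rows scaled by repeat reads (a scaling found here from the steps of the values). From these, whole reads (within 0.001) and family lengths were recovered for 99.5% of families above 0 and served as depth and for voom.

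The main fit was limma 3.58.1 (R 4.3.3) on log2(deposited value + 1) of families at 1 or more in at least 2 of 8 libraries (0.001 FPKM), as 4 group means with a variance trend (1.32 prior and 4 residual degrees of freedom), adjusted by Benjamini-Hochberg. Gene rows were fitted as log2(FPKM + 1). Fold changes are on these scales. The fits were also run on simulated reads with a fixed spread and 2-fold changes. That setting is simpler than these data and does not cover their smaller changes. LTR positions came from BLAST+ self-alignment on hg38 (version 2.17.0+). Intervals are at 95% and come from the limma fit. The exact binomial tests of replicates used recovered reads and cover counting error only. All HERVK families were named, with listed LTR partners, SVA families, ERVK gene rows and the most similar families. The members and lists were chosen with earlier results of these data known. Alternatives were other pseudocounts and filters, 4 scalings, a replicate block, only the 4 libraries compared, voom, the 2-fold rule and leaving out each library, and voom on families with at least 10 reads in every library was added after seeing the data. There were 0 unused columns of values.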

Additional observations from a re-analysis of the deposited data

Results flagged for a closer look

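The effect of DAC differed between the parental and the DAC-resistant line, by limma's test of the difference itself, for 3 of the 10 HERVK families, beside 6.44% of all families with a positive and 6.87% with a negative difference. For HERVK3-int the DAC effect was lower in DAC-resistant cells by -0.63 on the log2 scale (adjusted p = 0.0012), with 2 of 2 parental libraries higher with DAC than both DMSO libraries and overlapping pairs in the DAC-resistant line. For HERVK22-int it differed by 0.40 (adjusted p = 0.031), and for HERVK9-int by 0.18 (adjusted p = 0.046), where the fall in parental cells was the larger one. At equal sums over families the 3 differences were -0.28, 0.75 and 0.52, and 434 of all families had a positive and 57 a negative difference. In other fits with adjusted p-values the HERVK9-int call held in 7 of 12, and the HERVK3-int and HERVK22-int calls in all 12. The HERVK3-int difference was called without each of the 8 libraries in turn, the HERVK22-int one without 2 of them and the HERVK9-int one without none.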

How the results depend on the processing

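Of 19 calls of a family in a comparison, 10 held in every fit with adjusted p-values and 11 without each library in turn. The rise of HERVK3-int and the falls of HERVK9-int and HERVK22-int with DAC in parental cells, and the HERVK3-int and HERVK9-int differences between the lines with DMSO, were among those held in both. The 1 call that reversed was HERVK3-int between the lines with DAC, at 0.0255 with equal sums over families. That scaling moved the median of all families to -0.42 with DAC in parental cells, -0.18 and 0.17 between the lines with DMSO and DAC, and 0.36 for the difference of the DAC effects, and scaling by gene reads moved the medians between the lines to -0.25 and -0.22. The cause was not tested. With FPKM + 1, which compresses low levels, log2 values were smaller, as for HERVK3-int (0.26) and HERVK9-int (-0.29) between the lines with DMSO.

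Counts of HERVK families moved as follows. With DAC in parental cells, those raised went from 1 to 2 with FPKM + 1, 3 with voom and 2 with voom on at least 10 reads. Between the lines with DMSO, with only the 4 libraries compared, those raised were 1 and those lowered 1. Between the lines with DAC, those raised were 1 with FPKM + 1, without a filter, with upper-quartile scaling, gene reads, the 4 libraries or voom, and those lowered were 2 with equal sums and 3 with quantile normalization. The difference of the DAC effects was positive for 1 family with a pseudocount of 10, upper-quartile scaling, voom or voom on at least 10 reads, and for 4 with equal sums. The 2-fold rule left 0 raised and 0 lowered with DAC in parental cells, 1 and 0 between the lines with either treatment, and 0 and 0 for the difference of the effects. Leaving out each library gave 0 to 1 positive differences of the DAC effects, and between the lines with DAC 1 to 2 raised and 2 to 5 lowered.

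The labels do not say whether same-numbered libraries were paired. Same-numbered libraries did not deviate together (correlations from -0.13 to 0.19), which cannot show that they were unpaired. With the replicate number as a block, 1 family was raised between the lines with DAC, 1 had a positive difference of the DAC effects, and with DAC in parental cells 1 was raised and 2 were lowered. HERVK11D-int, HERVK14C-int and HERVKC4-int had 4 to 141 reads a library, and the part of depth in their results was not tested.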
